A study of Mus musculus with 2 samples.

Results

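The liver macrophage markers described here are 10 genes, Clec4f, Vsig4, Timd4, Cd5l, Adgre1, Csf1r, C1qa, C1qb, C1qc and Cd68, named by symbol and chosen with earlier results of these data known. All 10 were among the 15348 genes of the deposited table. The OTD group was 5 female NOG-TKm30 mice, 16 weeks of age, given 0.6% ortho-toluidine (OTD, an aromatic amine) for 1 week and 0.3% for the following 3 weeks, 4 weeks in all. The control group was 3 female NOG-TKm30 mice of the same age given 0% OTD. Both groups carry the HSVtk mutant clone 30 cDNA, a herpes simplex virus thymidine kinase, driven by the enhancer and promoter of the mouse transthyretin gene, which is active in hepatocytes. NOG mice are severely immunodeficient and lack mature T, B and NK cells, while they keep macrophages, of impaired function. The sources used here give neither vehicle nor route of OTD, and the labels name C57BL mice in the treatment protocol but NOG-TKm30 in the strain, the titles and the design text.

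Liver RNA of the mice of a group was mixed before sequencing, so each group is 1 library. The spread between mice is therefore unknown, and the differences between the pools could not be checked in replicates. Reads recovered from the deposited values summed over the listed genes to 14685193 in the OTD library and 13569189 in the control library. Equal totals below means that these sums were made equal. Levels are the deposited values, which behave as CPM, that is read counts set relative to the library's total, after division by a further factor per library. Ratios of levels are OTD over control, with a 95% Clopper-Pearson interval from how a gene's reads divided between the pools, which covers counting error only. In bulk liver RNA, fewer macrophages and less RNA per macrophage cannot be told apart.

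Kupffer cells are the resident macrophages of the liver. They sit in the sinusoids, where they clear particles, aged red blood cells and opsonised microbes from portal blood. In mice they renew locally under the growth factors CSF1 and IL-34, and they carry a set of receptors that other macrophages lack or express less, among them CLEC4F. Clec4f, Vsig4, Timd4 and Cd5l are taken here as the resident Kupffer markers. Adgre1, Csf1r, the C1q genes and Cd68 are shared with other macrophages and are taken as the general macrophage markers.

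The macrophage markers were present in both pools at nearly the same levels. Of the 10 markers, 9 were lower and Cd68 was higher in the OTD pool, and with both libraries set to the same total of reads 8 were lower (7 when the ribosomal RNA precursor Rn45s was also left out). None of the 10 reached a 2-fold difference in either direction, and their ratios ran from 0.855 for Timd4 to 1.28 for Cd68. Of 11956 genes with a mean level of at least 1, 48.8% were lower, 51.2% were higher, 0.209% were at least 2-fold lower and 0.326% at least 2-fold higher in the OTD pool. Shares of all genes, here and below, are those with the deposited scaling and were not recomputed for other scalings. The counting interval lay wholly below 1 for 3 of the 10 (Clec4f, Cd5l and Csf1r, and 0 with equal totals), where 14.2% of these genes had such an interval, and above 1 for 0 of the 10 (1, Cd68, with equal totals), against 15.4%. The share of genes past an interval depends on their reads, and the 3 markers with an interval below 1 were also the 3 with most reads.

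**Figure D1:**
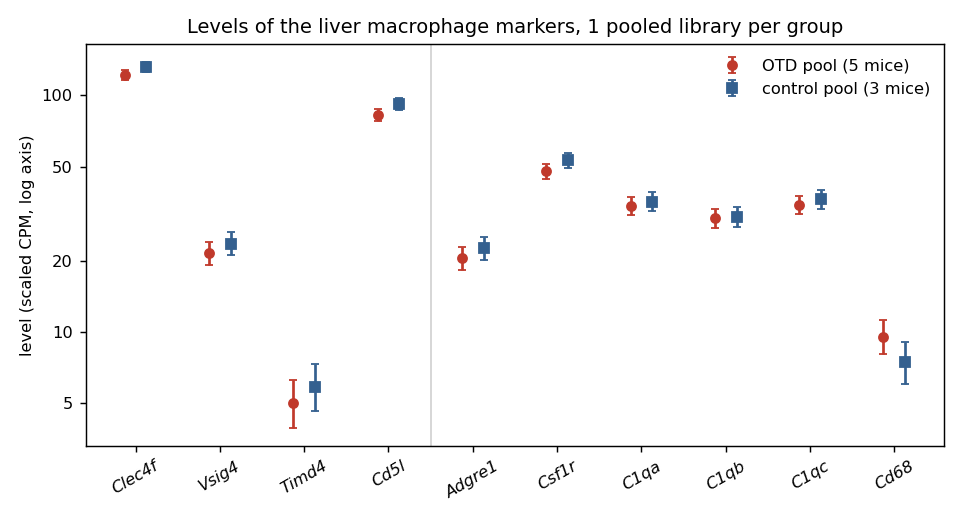
Level of each macrophage marker (scaled CPM, log axis) in the OTD pool (circles) and the control pool (squares), with 95% exact Poisson intervals of the read count as bars and resident Kupffer markers left of the grey line. The largest gap seen on the log axis is that of Cd68, at 9.55 in the OTD pool and 7.44 in the control pool.

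Clec4f, which encodes a C-type lectin receptor for galactose-type sugars found in mice on Kupffer cells, was the most abundant marker. Its level was 121.6 in the OTD pool (1821 reads), against 131.7 in the control pool (1753 reads). The OTD pool was lower, with a ratio of 0.924 (95% counting interval 0.865 to 0.987), and the interval took in 1 after scaling to the same total (0.898 to 1.03). In the OTD pool Clec4f ranked 1209th of the listed genes and in the control pool 1116th, so the defining Kupffer cell marker was well detected in both. The gene lies on chromosome 6 at 83644542 to 83656187 (GRCm38, minus strand) and is protein-coding.

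Cd5l encodes a scavenger protein, also called AIM, that macrophages secrete and that serves as a target of the nuclear receptor LXR. Its level was 82.7 in the OTD pool (1238 reads) and 91.9 in the control pool (1223 reads), a ratio of 0.900 (0.831 to 0.975). This too was lower in the OTD pool, by about the same proportion as Clec4f. The interval took in 1 after scaling to the same total (0.864 to 1.01). Clec4f and Cd5l together gave most of the reads of the 10 markers, with shares of 29.9% and 20.3% in the OTD pool and of 30.0% and 20.9% in the control pool.

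Vsig4, the complement receptor CRIg that binds C3b-coated particles, had a level of 21.5 in the OTD pool (322 reads) and 23.6 in the control pool (314 reads). Its ratio was 0.912 (0.778 to 1.07). Timd4, a phosphatidylserine receptor for apoptotic cells that marks long-lived Kupffer cells in mice, was the lowest of the markers, with a level of 5.01 in the OTD pool (75 reads) and 5.86 in the control pool (78 reads). Its ratio of 0.855 (0.614 to 1.19) was the furthest below 1, but with so few reads a difference of that size was not detectable. Both genes were lower in the OTD pool in value, with intervals that took in 1. Vsig4 lies on chromosome X at 96247203 to 96293438, Timd4 on chromosome 11 at 46810800 to 46844332 and Cd5l on chromosome 3 at 87357881 to 87371073.

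The start regions of Clec4f and Vsig4, resident markers with close ratios, are printed as a pair without and with the motif searched for. RefSeq promoter windows on GRCm38.p6, from 250 bases before to 50 after the RefSeq start, were found for 7 of the 10 markers and are written on the gene's strand. The RefSeq start is not always the start of the gene as given here from GENCODE. For Clec4f and C1qc it lies inside the gene as given, so part of the bases before it do too. Capitals mark GAGGAA on either strand, the purine-rich core bound by the myeloid factor PU.1, which contains the GGAA core shared by ETS factors.
Clec4f, chr6:83656067-83656366, minus strand: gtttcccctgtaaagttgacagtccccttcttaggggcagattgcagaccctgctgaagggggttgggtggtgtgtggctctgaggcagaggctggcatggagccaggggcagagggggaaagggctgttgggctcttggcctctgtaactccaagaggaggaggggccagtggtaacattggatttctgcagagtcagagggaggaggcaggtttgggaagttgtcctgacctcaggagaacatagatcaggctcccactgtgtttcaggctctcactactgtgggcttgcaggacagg
Vsig4, chrX:96293389-96293688, minus strand: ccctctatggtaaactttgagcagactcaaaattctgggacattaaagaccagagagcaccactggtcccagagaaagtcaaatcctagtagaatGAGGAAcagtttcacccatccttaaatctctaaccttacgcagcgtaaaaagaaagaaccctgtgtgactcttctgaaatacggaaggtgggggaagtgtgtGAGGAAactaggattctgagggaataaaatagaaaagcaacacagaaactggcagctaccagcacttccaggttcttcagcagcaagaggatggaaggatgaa
The Vsig4 window held the GAGGAA letters at positions −155 and −53 from the start, and the Clec4f window held none. Among all 32851 promoter windows 28.3% held GAGGAA, against 5 of the 7 windows of the markers. GGAA was in 7 of 7 and in 96.0% of all windows. A match is a string of letters and not a measured binding site.

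Adgre1, which encodes the adhesion receptor EMR1 whose antigen is used to stain mouse macrophages, had a level of 20.4 in the OTD pool (306 reads) and 22.5 in the control pool (300 reads). Its ratio was 0.907 (0.771 to 1.07). Csf1r, the receptor for CSF1 and IL-34 on which macrophages depend for survival, had a level of 47.8 in the OTD pool (716 reads) and 53.2 in the control pool (708 reads). Csf1r was lower in the OTD pool with a ratio of 0.899 (0.809 to 0.999), an interval that ended just below 1 and took in 1 when the median ratio of all genes was set to no change (0.813 to 1.004) or the totals were made equal (0.841 to 1.04). Adgre1 lies on chromosome 17 at 57358691 to 57483527 and Csf1r on chromosome 18 at 61100598 to 61132149. At its end Csf1r overlaps 873 bases of Hmgxb3 on the opposite strand, which had a level of 28.0 in the OTD pool and 31.0 in the control pool. The sources used here do not say whether counting used strand, so reads of the overlap may come from either gene.

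C1qa, C1qb and C1qc encode the A, B and C chains of C1q, the recognition molecule of the classical complement pathway. The chains assemble in equal numbers, and macrophages are the main source of C1q in the body. The genes lie side by side on the minus strand of chromosome 4, C1qb at 136880129 to 136886187, C1qc at 136889804 to 136893065 and C1qa at 136895917 to 136898803, a span of 18675 bases. C1qa had a level of 34.0 in the OTD pool (509 reads) and 35.5 in the control pool (473 reads), a ratio of 0.957 (0.843 to 1.09). C1qb had 30.2 in the OTD pool (452 reads) and 30.7 in the control pool (409 reads), a ratio of 0.983 (0.858 to 1.13). C1qc had 34.3 in the OTD pool (514 reads) and 36.3 in the control pool (483 reads), a ratio of 0.946 (0.834 to 1.07). The chains were the markers closest to no difference, and each interval took in 1. With equal totals C1qb had a ratio of 1.02, and without Rn45s 1.03 with C1qa at 1.01, so their direction depends on the scaling.

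Per kb of the longest annotated transcript, the C1q chains stood at 32.7 for C1qa, 27.8 for C1qb and 28.5 for C1qc in the OTD pool, and at 34.2, 28.2 and 30.2 in the control pool. Within a library C1qa over C1qb was 1.18 in the OTD pool and 1.21 in the control pool. The quotient of these ratios was 0.974 (0.807 to 1.17), that of C1qa over C1qc 1.01 (0.844 to 1.21) and that of C1qb over C1qc 1.04 (0.862 to 1.25). Each of these intervals took in 1, so a shift in the mRNA proportions of the chains was not detectable at this depth. The start regions of C1qb and C1qc, neighbours with like levels per kb, are printed with GAGGAA or its reverse complement in capitals as above.
C1qb, chr4:136886151-136886450, minus strand: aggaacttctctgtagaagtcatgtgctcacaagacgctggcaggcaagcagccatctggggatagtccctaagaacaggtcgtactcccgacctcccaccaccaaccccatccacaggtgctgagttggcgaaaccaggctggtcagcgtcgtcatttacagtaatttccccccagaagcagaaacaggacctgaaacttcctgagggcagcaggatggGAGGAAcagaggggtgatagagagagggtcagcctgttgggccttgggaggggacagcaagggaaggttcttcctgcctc
C1qc, chr4:136892865-136893164, minus strand: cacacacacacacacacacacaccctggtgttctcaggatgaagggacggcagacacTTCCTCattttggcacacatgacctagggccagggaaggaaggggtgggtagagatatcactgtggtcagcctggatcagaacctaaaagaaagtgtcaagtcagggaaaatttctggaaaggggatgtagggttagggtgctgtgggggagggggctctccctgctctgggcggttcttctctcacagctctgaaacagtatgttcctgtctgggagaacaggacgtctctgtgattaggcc
C1qb held the letters at position −30 on the gene's strand and C1qc at −193 on the opposite strand.

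Cd68 encodes macrosialin, a heavily glycosylated protein of late endosomes and lysosomes, and was the marker that ran the other way. Its level was 9.55 in the OTD pool (143 reads), against 7.44 in the control pool (99 reads). The OTD pool was higher, with a ratio of 1.28 and an interval that took in 1 (0.987 to 1.68). The interval lay above 1 after scaling to the same total (1.03 to 1.74) and when Rn45s was also left out (1.04 to 1.76). Relative to the reads of the other 9 markers in the same library, which needs no scaling between libraries, Cd68 stood at 0.0240 in the OTD pool and 0.0172 in the control pool, a quotient of 1.39 (1.07 to 1.82). Against Csf1r alone the quotient was 1.43 (1.07 to 1.90), and against Adgre1 alone 1.42 (1.04 to 1.94). Cd68 was singled out after its value was seen, so these intervals describe it and do not test it.

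Cd68 lies on chromosome 11 at 69664213 to 69666153 on the minus strand, overlaps no other gene in GENCODE M21, and like each of the other 9 markers shares 0% of its 50-base stretches with transcripts of other genes. Its start region is printed because Cd68 differed in direction from the other markers.
Cd68, chr11:69666121-69666420, minus strand: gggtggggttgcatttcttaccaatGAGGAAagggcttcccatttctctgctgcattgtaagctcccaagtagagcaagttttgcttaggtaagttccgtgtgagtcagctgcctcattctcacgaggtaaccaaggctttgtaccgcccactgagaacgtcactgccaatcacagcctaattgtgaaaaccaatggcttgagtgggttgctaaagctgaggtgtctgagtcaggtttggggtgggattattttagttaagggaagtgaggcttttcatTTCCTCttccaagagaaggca
GAGGAA stood at −225 and, on the opposite strand, at +30. The AP-1 letters TGANTCA occurred 2 times, at −149 and −24, and in none of the other 6 windows of the markers, against 7.81% of all promoter windows. The MAF site TGCTGAC was found only in the Timd4 window among the 7, against 4.67% of all windows, and TATAAA in 0 of 7, against 13.6%. Any E-box (CANNTG) was in 5 of 7 windows and in 72.3% of all.

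**Figure D2:**
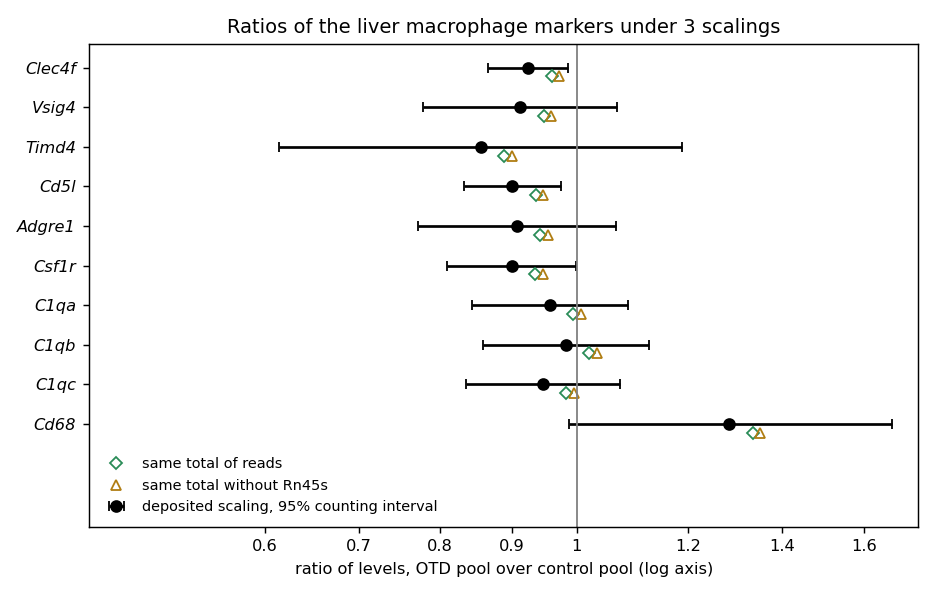
Ratio of levels, OTD pool over control pool (log axis), for each macrophage marker, with the deposited scaling and its 95% counting interval (filled circles and bars), with equal totals of reads (diamonds) and with equal totals without Rn45s (triangles). With the deposited scaling 9 markers lie left of 1 and Cd68 right of it, while C1qb crosses 1 with equal totals and C1qa also crosses when Rn45s is left out.

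Summed over the 10 markers, the level was 407.2 in the OTD pool (6096 reads) and 438.7 in the control pool (5840 reads). The ratio of the sums was 0.928 (0.895 to 0.962), and 0.964 (0.930 to 0.9999) after scaling to the same total. Left without Rn45s, which took 2.66% of the OTD reads and 1.47% of the control reads, the ratio was 0.976 (0.942 to 1.01). The part of Rn45s in the lower sum was not otherwise tested. The resident markers gave 230.9 in the OTD pool and 253.0 in the control pool, a ratio of 0.912 (0.870 to 0.957), and 0.960 (0.915 to 1.007) with equal totals without Rn45s. The general markers gave 176.3 in the OTD pool and 185.7 in the control pool, a ratio of 0.950 (0.898 to 1.004). Cd68 was also left out, a choice made after its value was seen. Without it the general markers had a ratio of 0.936 (0.884 to 0.990), an interval below 1 with the deposited scaling. This smaller sum was not computed with equal totals, but these multiply every ratio and its limits by 1.039. The upper limit of 0.990 would then lie above 1, so the interval would take in 1. With Cd68 kept, the general markers had a ratio of 0.987 (0.934 to 1.04) with equal totals.

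The balance between resident and general macrophage markers was measured within each library, where scaling drops out. The reads of the resident markers were 1.31 times those of the general markers in the OTD pool and 1.36 times in the control pool. The quotient was 0.961 (0.893 to 1.03), a difference that was not detectable at this depth. Among the resident markers, Timd4 over Clec4f had a quotient of 0.926 (0.660 to 1.30), Vsig4 over Clec4f 0.987 (0.831 to 1.17) and Clec4f over Cd5l 1.03 (0.925 to 1.14). Each of these intervals took in 1, and that of Timd4 was the widest.

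Levels of different genes were set side by side per kb of the longest annotated transcript, which assumes that this transcript is the one expressed. Clec4f was highest, at 49.2 in the OTD pool and 53.3 in the control pool, and Cd5l followed, at 40.6 in the OTD pool and 45.1 in the control pool. After the C1q chains came Vsig4 with 15.0 in the OTD pool and 16.5 in the control pool, and Csf1r with 10.2 in the OTD pool and 11.3 in the control pool. At the low end, Cd68 had 7.77, Adgre1 6.31 and Timd4 2.31 in the OTD pool, and Adgre1 had 6.96, Cd68 6.05 and Timd4 2.70 in the control pool. The order was the same in both pools except that Cd68 and Adgre1 changed places. Neighbours in that order that did not differ beyond counting error were C1qc and C1qb in the OTD pool. In the control pool they were C1qa and C1qc, C1qc and C1qb, and Adgre1 and Cd68.

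Of the 10 markers, 8 had a mean level of at least 10, and Timd4 and Cd68 lay below it. These 8 had a median log2 ratio of −0.12 (with a pseudocount of 1), against −0.0063 for the 7602 genes at that level. With equal totals the median was −0.067 for the 8 and 0.047 for the 7602 genes. When Rn45s was also left out the medians were −0.049 and 0.065, so both moved by a like amount. With the deposited scaling 8 of the 8 were lower, against 51.6% of genes, and 0 were higher, against 48.4%. The markers lower were 7 with equal totals and 6 when Rn45s was also left out, scalings for which the share of genes is not given. An interval below 1 was found for 3 of the 8, against 19.6% of genes, and an interval above 1 for 0, against 18.6%, all with the deposited scaling. With equal totals 0 of the 8 had an interval below 1. A 2-fold difference was reached by 0 of the 8, against 0.21% of genes lower and 0.21% higher. With all 10 markers the median was also −0.12.

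**Figure D3:**
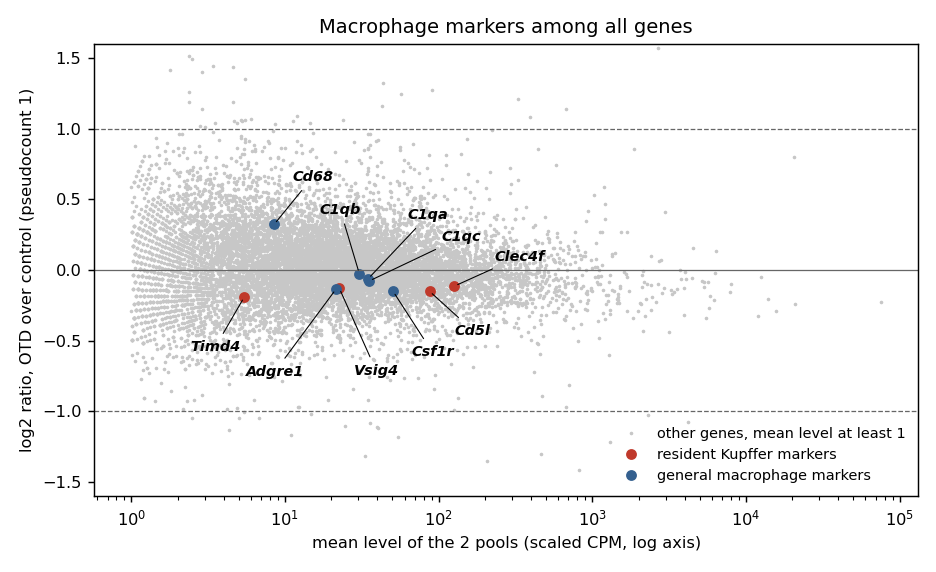
Log2 ratio, OTD over control with a pseudocount of 1, against the mean level of both pools (log axis) for genes with a mean level of at least 1, with the resident Kupffer markers in red, the general macrophage markers in blue and other genes in grey. The markers lie within the grey cloud and between the dashed lines of a 2-fold difference, and 12 genes lie outside the plotted range.

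Other genes known from Kupffer cells gave a mixed picture. Of 20 such genes, 20 were in the table and 9 had a mean level of at least 10, of which 6 were lower and 3 higher (median log2 ratio −0.08), with 2 intervals below 1 (Slc40a1 and Cd163, and 0 with equal totals) and 2 above (Hmox1 and Cdh5, also with equal totals). Among all genes at that level, 51.6% were lower, 19.6% had an interval below 1 and 18.6% had one above. The same shares stand beside the counts of the lists below. The iron exporter gene Slc40a1 was the most abundant, with 275.5 in the OTD pool and 296.7 in the control pool, a ratio of 0.929 (0.889 to 0.970). Cd163, the receptor for hemoglobin bound to haptoglobin, had 30.2 in the OTD pool and 34.5 in the control pool (ratio 0.876, 0.767 to 0.999). Hmox1, which encodes the enzyme that degrades heme, was higher, with 36.8 in the OTD pool and 30.1 in the control pool (ratio 1.22, 1.07 to 1.39). Cdh5, which endothelial cells also express, had 49.1 in the OTD pool and 42.4 in the control pool (ratio 1.16, 1.04 to 1.30). Slc40a1 and Hmox1 are expressed by hepatocytes as well, so their ratios are not those of macrophages alone.

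Scavenger and efferocytosis receptor genes were lower for 10 of 16 at a mean level of at least 10 and higher for 6, with 8 intervals below 1 and 2 above (5 and 4 with equal totals) and a median log2 ratio of −0.10. The fatty acid transporter gene Cd36 had 29.1 in the OTD pool and 47.5 in the control pool (ratio 0.612, 0.540 to 0.693). Scarb1, the receptor for high-density lipoprotein, had 204.9 in the OTD pool and 276.0 in the control pool (ratio 0.742, 0.707 to 0.779). Lrp1 had 1626 in the OTD pool and 2059 in the control pool (ratio 0.790, 0.776 to 0.804). All of these are also expressed by hepatocytes or endothelial cells, and their ratios were further from 1 than that of any of the 9 lower macrophage markers. Of the 6 higher genes, Gas6 had 80.7 in the OTD pool and 64.9 in the control pool (ratio 1.24, 1.14 to 1.36). Msr1 had 22.4 in the OTD pool and 20.1 in the control pool (ratio 1.11, 0.944 to 1.31). Below a mean level of 10, Marco was higher, with 143 reads in the OTD pool and 108 in the control pool (ratio 1.18, 0.911 to 1.53). Gas6, Msr1 and Marco were picked with their ratios already known.

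Of 18 macrophage transcription factor genes, 13 had a mean level of at least 10, with 7 lower and 6 higher (median log2 ratio −0.07, and 0.0050 with equal totals without Rn45s). The interval lay below 1 for 5 of these 13 (4 with equal totals) and above 1 for 1, Bach1, also with equal totals. Bach1, named after its value was seen, had 62.9 in the OTD pool and 55.8 in the control pool (ratio 1.13, 1.02 to 1.24). Id1 and Id3, targets of BMP signalling of which Id3 is needed for Kupffer cells in mice, had the lowest ratios of these 13. Id1 had 8.08 in the OTD pool and 16.8 in the control pool (ratio 0.482, 0.383 to 0.605), and Id3 had 24.1 in the OTD pool and 37.6 in the control pool (ratio 0.641, 0.558 to 0.735). Several liver cell types express both. Spi1, which encodes PU.1, had 2.07 in the OTD pool (31 reads) and 3.46 in the control pool (46 reads), a ratio of 0.599 (0.367 to 0.966). That is a low level in both pools, below a mean level of 10, so Spi1 is not among the 13. The interval came close to 1, and equal totals, which multiply its limits by 1.039, take the upper one just past 1. Of the other factors below that level, Irf8 was higher, with 87 reads in the OTD pool and 60 in the control pool (ratio 1.29, 0.917 to 1.82). Spic, Runx1 and Tfec were lower, and the intervals of all of these took in 1.

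Genes of the growth factors and niche signals that keep Kupffer cells were lower for 4 and higher for 3 of 7 at a mean level of at least 10 (median log2 ratio −0.07, and 0.0021 with equal totals without Rn45s). There was 1 interval below 1, that of Cxcl12, which took in 1 with equal totals. Intervals above 1 were 0 as deposited, 1 (Eng) with equal totals and 2 (Tgfb1 and Eng) when Rn45s was also left out. Csf1, the ligand of the receptor encoded by Csf1r, had 12.6 in the OTD pool and 13.9 in the control pool (ratio 0.904, 0.734 to 1.11). Gdf2, which encodes BMP9 from stellate cells, had 20.8 in the OTD pool and 22.8 in the control pool (ratio 0.910, 0.774 to 1.07). Tgfb1 had 14.6 in the OTD pool and 12.4 in the control pool (ratio 1.18, 0.955 to 1.45). Cxcl12 was the most abundant, with 304.4 in the OTD pool and 319.7 in the control pool (ratio 0.952, 0.913 to 0.993).

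The partners of C1q in the classical complement pathway are made mostly by hepatocytes. Of 19 complement and regulator genes at a mean level of at least 10, 16 were lower and 3 higher, with 13 intervals below 1 and 0 above (10 and 1 with equal totals), and the median log2 ratio was −0.16. Among all genes at that level 51.6% were lower and 19.6% had an interval below 1. Genes with many reads, such as C3, pass an interval at smaller differences. C3, whose cleaved product Vsig4 binds, had 10631 in the OTD pool and 13290 in the control pool (ratio 0.800, 0.795 to 0.805). C4b had 1820 in the OTD pool and 2453 in the control pool (ratio 0.742, 0.730 to 0.754), and the serine protease gene C1rb had 25.9 in the OTD pool and 44.4 in the control pool (ratio 0.584, 0.512 to 0.665). The summed C1q chains had a ratio of 0.961 (0.892 to 1.03).

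Of 22 pan-leukocyte and lysosomal myeloid genes, 8 had a mean level of at least 10, of which 3 were lower and 5 higher (median log2 ratio 0.05, and −0.037 at a mean level of at least 50). An interval below 1 was found for 3 of the 8 (Cybb, Mpeg1 and Ctsb) and above 1 for 1 (Lcp1), and with equal totals for 2 below and 3 above. When Rn45s was also left out, 0 lay below 1 and 3 above (Lcp1, Lyz2 and Ctsd). The actin-bundling gene Lcp1 had 92.4 in the OTD pool and 76.0 in the control pool (ratio 1.22, 1.12 to 1.32), while the NADPH oxidase gene Cybb had 16.2 in the OTD pool and 20.2 in the control pool (ratio 0.803, 0.673 to 0.959). The lysosomal protease gene Ctsb had 673.7 in the OTD pool and 718.4 in the control pool (ratio 0.938, 0.912 to 0.964), and Lyz2, the lysozyme of myeloid cells, 37.4 in the OTD pool and 33.4 in the control pool (ratio 1.12, 0.988 to 1.27). The macrophage pore protein gene Mpeg1, named after its value was seen, had 142.1 in the OTD pool and 158.7 in the control pool (ratio 0.896, 0.843 to 0.952). Below a mean level of 10, 2 more genes named after their values were seen went opposite ways. Ptprc had 141 reads in the OTD pool and 90 in the control pool (ratio 1.393, 1.062 to 1.835). Tlr4 had 69 reads in the OTD pool and 89 in the control pool (ratio 0.689, 0.496 to 0.955).

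Of 12 Fc and complement receptor genes, 3 had a mean level of at least 10 and all 3 were lower (2 with equal totals). Fcgr2b, an inhibitory Fc receptor that in liver is mostly endothelial, had 47.2 in the OTD pool and 56.6 in the control pool (ratio 0.834, 0.751 to 0.925). Below that level Fcer1g, named after its value was seen, had 60 reads in the OTD pool and 32 in the control pool (ratio 1.67, 1.07 to 2.65). Fcgr3 (45 and 56 reads) and Itgam (17 and 28 reads) were lower in the OTD pool, with intervals that took in 1. Of 7 genes of MHC class II presentation, 1 reached that level, Cd74, with 14.4 in the OTD pool and 13.8 in the control pool (ratio 1.04, 0.849 to 1.27).

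Markers of recruited blood cells were low in both pools. Of 18 monocyte and monocyte-derived macrophage markers 16 were in the table, and 4 had a mean level of at least 10 (Lyz2, Cd9, Spp1 and Fn1, which resident liver cells also express), with 3 lower and 1 higher. Ccr2, the receptor of recruited monocytes, had 7 reads in the OTD pool and 8 in the control pool and the monocyte antigen gene Ly6c2 had 8 in each, both named after their values were seen. Of 12 neutrophil marker genes 9 were in the table, with a summed level of 6.01 in the OTD pool and 3.61 in the control pool, and 0 reached a mean level of 10. All but S100a9 (8 and 10 reads) were higher in the OTD pool, each on few reads. Intervals lay above 1 for S100a8 (11 and 2 reads, ratio 4.89, 1.07 to 45.4) and Csf3r (18 and 6 reads, ratio 2.67, 1.01 to 8.21). These were named after their values were seen. Of 15 lymphoid markers 3 were in the table, with a summed level of 1.34 in the OTD pool and 2.70 in the control pool. Il2rg, the receptor gene disrupted in NOG mice, had 4 reads in the OTD pool and 8 in the control pool.

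Markers of the other liver cells were also slightly lower by median with the deposited scaling, but stellate cell markers stood at 0.0088 with equal totals and sinusoidal endothelial markers at 0.0036 when Rn45s was also left out, and cholangiocyte markers at 0.012 at a mean level of at least 1 and 0.062 with no filter. Hepatocyte markers had a median log2 ratio of −0.07 over 10 genes, sinusoidal endothelial markers −0.07 over 12, stellate cell markers −0.05 over 7 and cholangiocyte markers −0.08 over 3, against −0.13 for the 3 resident Kupffer markers and −0.08 for the 5 general macrophage markers at a mean level of at least 10. With equal totals the resident markers stood at −0.074 and the general markers at −0.024, and without Rn45s at −0.058 and −0.0065. At a mean level of at least 50, which of the general markers only Csf1r reached, that median was −0.15. Erythroid markers had 0.09 over 4 and 0.45 over the 2 at a mean level of at least 50, the alpha-globin genes Hba-a1 and Hba-a2. Hba-a2 had 142.2 in the OTD pool and 80.6 in the control pool (ratio 1.76, 1.64 to 1.90) and Hba-a1 had 211.1 in the OTD pool and 197.4 in the control pool (ratio 1.07, 1.02 to 1.13), and as near-identical copies that counting could split unevenly their single values are uncertain. The part of these differences in the levels of the macrophage markers was not tested.

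**Figure D4:**
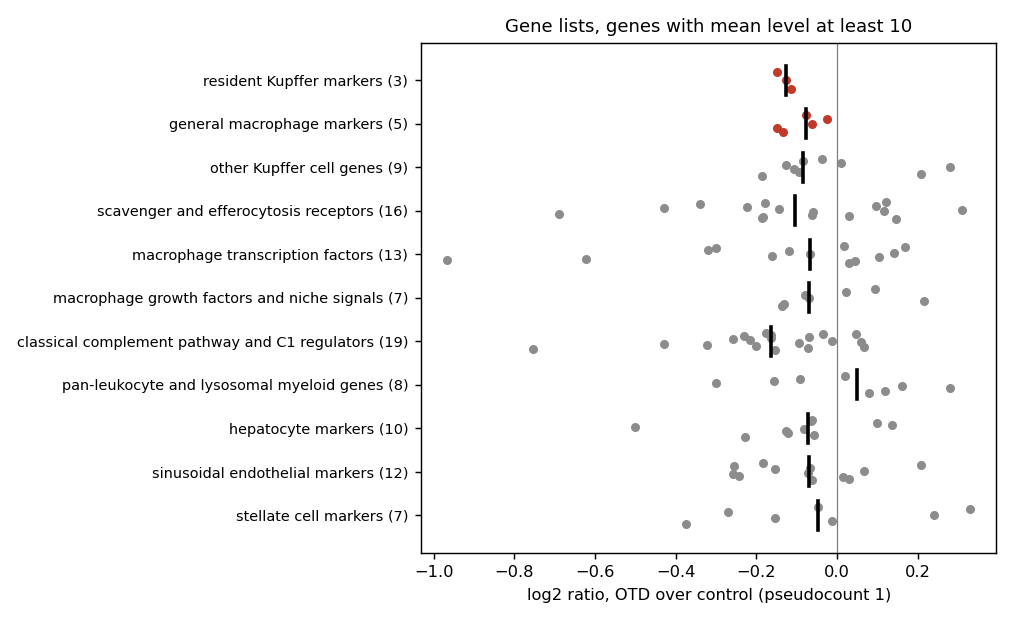
Log2 ratio, OTD over control with a pseudocount of 1, of each gene with a mean level of at least 10 (points) by gene list, with the list median as a black bar and the number of genes in brackets. The macrophage markers, in red, lie between −0.15 and −0.02 with the deposited scaling (with equal totals C1qb lies above 0, and C1qa too without Rn45s), and the genes of the scavenger receptor list between −0.69 and 0.31.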

How the data were processed

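Per the labels' protocols, 200 ng of total RNA per pool went through ribosomal RNA depletion and a directional MGI library kit. The submitters' processing notes name mm10 and the tools edgeR, RSEM, Bowtie2 and Trimmomatic 0.38, without roles. The deposited values are an expression signal per gene that the authors derived from reads. In each column 100% of them were whole multiples of 1 read (tolerance 1e-06), so reads were recovered. The values equal CPM divided by 1.02 in the OTD library and 0.981 in the control library, and 3 reads make a level of 0.200 in the OTD library and 0.225 in the control library. The columns carry the unexplained word Wild and were matched by their words for control and OTD.

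Quotients of ratios have conditional exact intervals, and log2 ratios a pseudocount of 1. With 1 library per group there is no residual degree of freedom, so no count test was run on the reads and no p-value is given. The markers, gene lists and rules were chosen with earlier results of these data known. Named genes were the 10 markers, Il2rg, Spi1 and, per list, up to 3 genes of largest absolute log2 ratio with the most abundant one. Not every gene this takes is printed, and others are named as chosen later. GENCODE M21 (GRCm38) gave positions and lengths. Intervals were tested on simulated counts that held counting error only, so that check does not bear on the spread between mice or libraries. The work used scipy 1.17.1, numpy 2.4.6, pandas 2.3.3, matplotlib 3.10.9 and Python 3.11.15. Alternatives were other scalings, pseudocounts, filters, interval methods and sets of markers.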

Additional observations from a re-analysis of the deposited data

How the results depend on the processing

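The direction of the small difference was kept by most markers, and its call by counting error depended on the scaling. With the same total of reads, and with the same total without Rn45s, the median log2 ratio of the markers at a mean level of at least 10 was −0.067 and −0.049 (−0.12 as deposited), the summed level had a ratio of 0.964 and 0.976, the count of markers above a ratio of 1 was 1 and 2 of 8 (0 as deposited), and the count with an interval below 1 was 0 and 0 (3 as deposited). These scalings move every gene by the same amount, 0.06 and 0.07 on the log2 scale. The median of all genes at that level moved with the markers, to 0.047 and 0.065 (−0.0063 as deposited). With a mean level of at least 1 or no filter, 1 marker, Cd68, was above 1, and at a mean level of at least 50 the count below 1 was 3, since only 3 markers reach that level. With the median log2 ratio set to 0 the count with an interval below 1 was 2, as Csf1r took in 1. Other scalings (upper quartile, median) left the median within the spread between markers, and the sums within the counting interval, of the main value. Pseudocounts of 0.5 and 10 left the median within that spread, and Wilson intervals left the count with an interval below 1 at 3. Leaving out Cd5l, the C1q chains or Cd68 was done for the sum of all markers and for the balance of resident over general markers. Both stayed within the counting interval of the main value. Leaving out Cd68 was chosen after seeing the data, as were the scalings of the resident and general sums. Without Rn45s the resident sum had a ratio of 0.960, with an interval that took in 1. The interval of the general sum took in 1 as deposited. It lay below 1 without Cd68 (0.884 to 0.990, deposited scaling only) and with equal upper quartiles (0.888 to 0.992). No paired analysis was possible because each group has 1 library, and for the same reason no replicate could be left out. Depth limits Timd4 (75 and 78 reads) and Cd68 (143 and 99 reads) most.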
